A study of Mus musculus with 88 samples.

Results

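Tibialis anterior muscle, which lifts the foot and is made mostly of fast fibres, was compared between 2 mouse models of colorectal cancer: the change in APC+/Min mice against wild types was set beside the change in C26 tumour bearers at 25 days against PBS controls. Members were chosen by the sample labels and not by any measured value, but with earlier results of these data known. They were 57 of the 88 libraries of the series. The gene lists read below were also chosen with such results known. The measurement was poly(A)-enriched mRNA sequencing, and values are estimated counts per gene. In the C26 experiment, Balb/c mice received the C26 colon carcinoma line on both sides and muscle was taken 25 days later (6 female and 8 male libraries), or mice received PBS and muscle was taken after the same 25 days (7 female and 8 male libraries). In the APC experiment, muscle came from 20 weeks old APC+/Min mice on a C57 black background (6 female and 6 male libraries) and from their wild types of the same age (8 female and 8 male libraries). The Min allele of Apc is germline and therefore present in every cell of the animal, muscle included. Strain and tumour differ between the experiments, and age and the collection of tissue may differ too. A difference between the 2 responses therefore cannot be told apart from any of these. The labels do not state that each library is a separate mouse, and p-values measure the spread between libraries as labelled.

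Cachexia is the loss of muscle and fat that accompanies cancer and other chronic disease. Muscle fibres lose protein through the ubiquitin-proteasome system, in which the muscle ligases Trim63 (MuRF) and Fbxo32 (atrogin) mark proteins for the proteasome, and through autophagy, and FoxO transcription factors, glucocorticoids and IL-6 acting through STAT3 are known to drive both. Between the fibres lie fibro-adipogenic progenitors, mesenchymal cells that make much of the collagen matrix, together with vessels, nerves and immune cells, and all of them contribute RNA to a bulk sample.

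Library totals ran from 18268347 to 30689819 estimated counts. The muscle label was borne out by Acta1, Ckm, Myh4 and the other genes of skeletal muscle identity, whose 11 members summed to between 80100 and 241000 CPM (counts scaled to library size, TMM-normalized) in every library. Some libraries stood apart from their groups: Alb, the liver plasma protein albumin, was at or above 10 CPM in 4 of them (C26_male_25days replicates 4 and 5, APC_female_wt replicate 2 and APC_female_apc replicate 1), C26_male_25days replicate 2 held Xist, and C26_female_25days replicate 6 held short transcripts in excess. Where leaving out these 6 libraries moves a call or a list's direction, that is stated beside the result. Apc itself had a log2 change of 0.23 ± 0.14 (± SE throughout, adjusted p = 0.2) in APC+/Min. The Min allele is a point mutation, so this level checks no label.

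Calls were made with edgeR's quasi-likelihood test at a Benjamini-Hochberg adjusted p below 0.05, taken over all 16088 genes tested. In APC+/Min 7305 genes were called (45.4% of those tested), 3888 rising (24.2%) and 3417 falling (21.2%). A called change of at least 2-fold was seen for 2830 (17.6%). In C26 at 25 days 3532 genes were called (22%), 1879 rising (11.7%) and 1653 falling (10.3%), with 648 of at least 2-fold (4.03%). The difference of the 2 changes, APC+/Min minus C26, was tested in 1 model over both experiments and was called for 4678 genes (29.1%), 2354 with the higher change in APC+/Min (14.6%) and 2324 with the lower (14.4%). It reached at least 2-fold for 1636 of them (10.2%). Of the 2385 genes called in both models, 96.3% had the same sign, and their median absolute log2 change was 1.05 in APC+/Min and 0.49 in C26. Across all genes tested the 2 changes correlated with a Pearson r of 0.51 and a Spearman rho of 0.52, which is a description across genes that share the libraries they were measured in.

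The calls placed the genes in classes. The same direction in both models was called for 2298 genes (14.3%), 1147 higher (7.13%) and 1151 lower (7.15%), and for 984 of these the difference was called too (6.12%): the change was larger in APC+/Min for 976 (6.07%) and larger in C26 for 8 (0.0497%). A change called in APC+/Min and in the difference but not in C26, termed APC only here, was found for 3161 genes (19.6%), 1725 higher (10.7%) and 1436 lower (8.93%). The mirror class, C26 only, held 246 genes (1.53%), 181 higher (1.13%) and 65 lower (0.404%). Called changes of opposite sign were found for 87 genes (0.541%): 62 fell in APC+/Min and rose in C26 (0.385%), and 25 rose in APC+/Min and fell in C26 (0.155%). With both changes taken from the joint model, which shares 1 estimate of spread, 41 genes were opposite, 33 of them among the 87. Libraries of the tumour group and its controls did not overlap for 9.52% of genes in APC+/Min females (5.16% above, 4.36% below), 6.5% in APC+/Min males (3.12% above, 3.38% below), 2.15% in C26 females (1.42% above, 0.733% below) and 1.71% in C26 males (0.97% above, 0.74% below). No gene was free of overlap in both sexes of both models with opposite signs (0%).

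**Figure D1:**
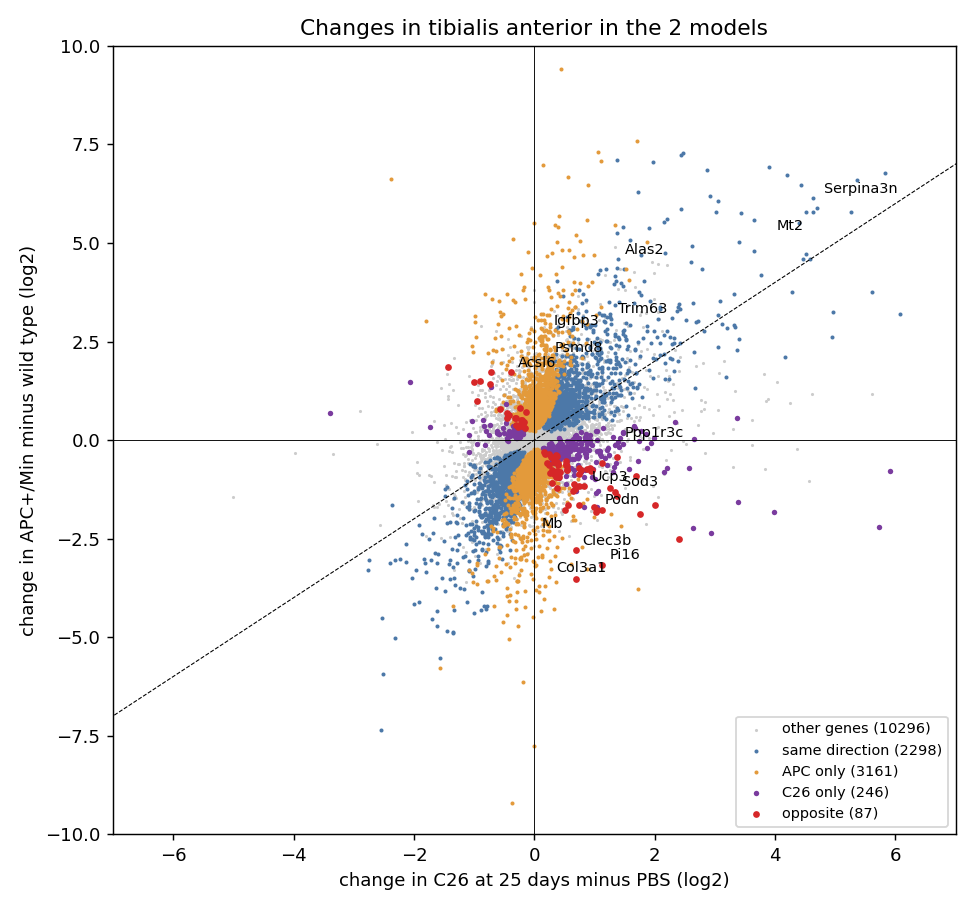
Each point is 1 of the 16088 genes tested, with its log2 change in C26 at 25 days on the x axis and in APC+/Min on the y axis, coloured by class, and the dashed line marks equal change. Of the genes called in the same direction and in the difference, 976 of 984 changed by more in APC+/Min, and the 87 genes of opposite direction fill the lower right and upper left.

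**Figure D2:**
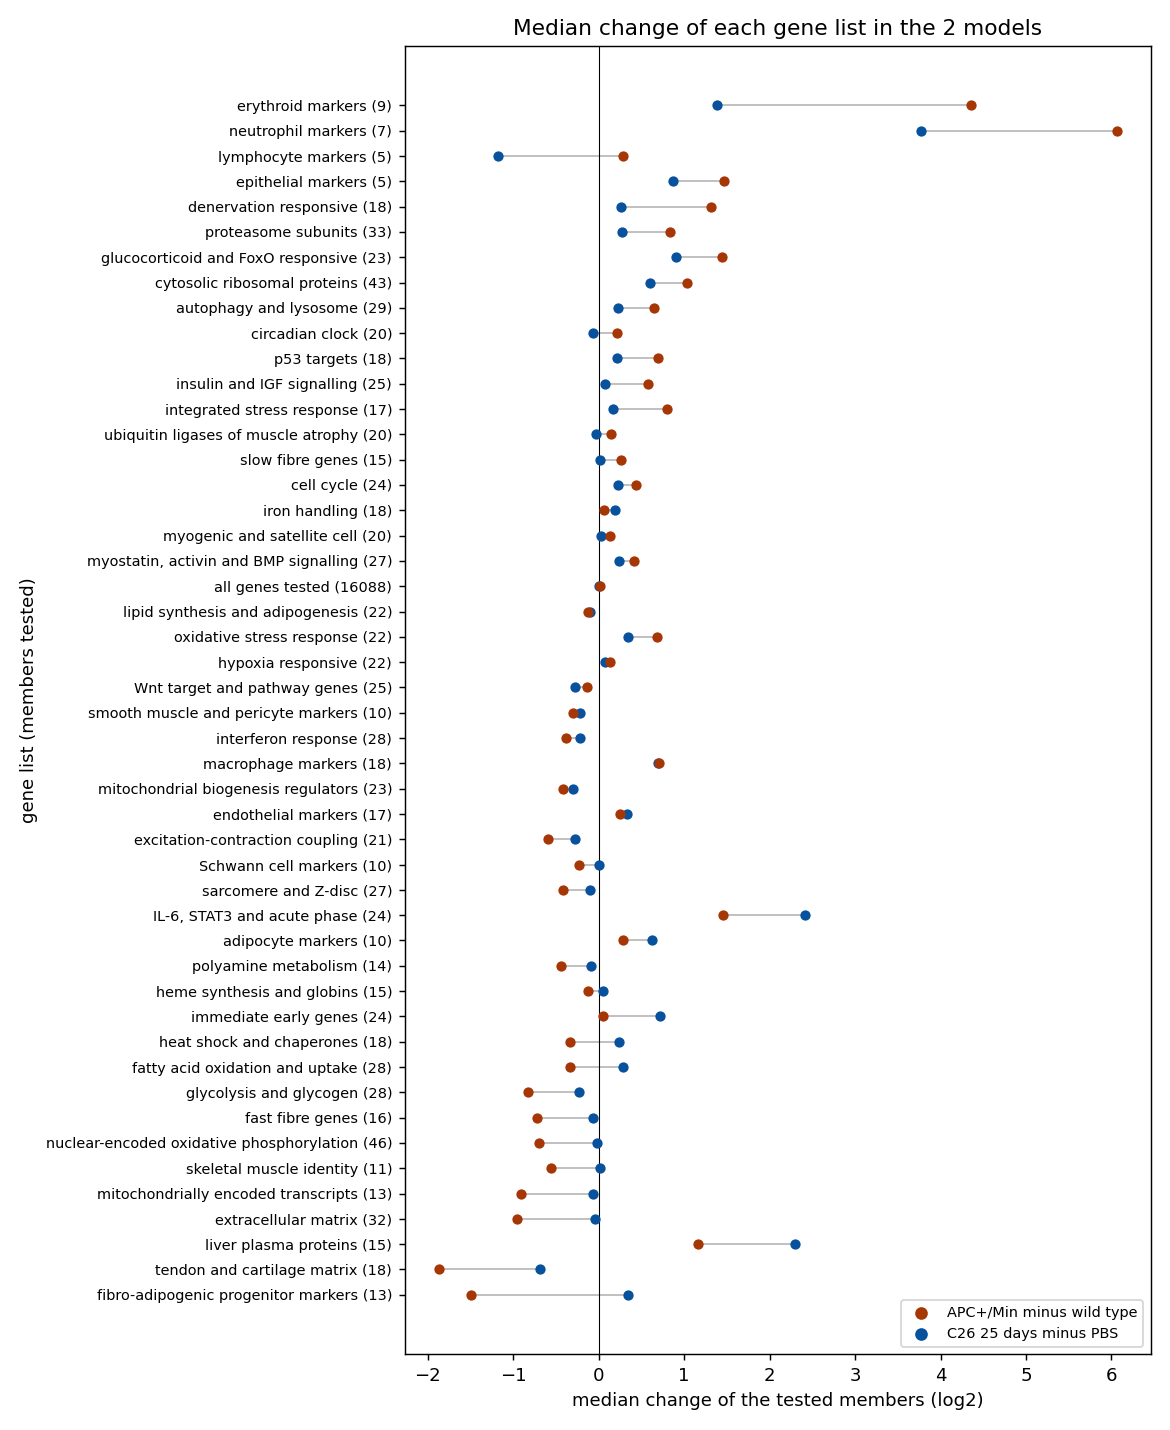
Each row is a gene list with its number of tested members, and the points mark the median log2 change of those members in APC+/Min (brown) and in C26 at 25 days (blue). Rows are ordered by the median difference: the fibro-adipogenic progenitor markers, at -1.49 and 0.34, are at the bottom and the erythroid markers, at 4.36 and 1.39, at the top.

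Inflammatory and acute phase genes rose in both models. All 7 tested neutrophil markers rose in each, with a median log2 change of 6.06 in APC+/Min and 3.77 in C26 (0.02 and 0.01 over all genes), and the difference was called for 2 of them, Mmp8 and S100a8 (S100a8 at 1.67, adjusted p = 0.069, without APC_male_apc replicate 1). Without the 6 libraries that stand apart it was called for 3, S100a9 being the third. The summed level of the 8 listed neutrophil markers lay between 0.333 and 7.89 CPM in every control library and between 10.4 and 171 CPM in every tumour library. Levels of single genes are given from the lowest to the highest library of a group, and where 2 ranges stand side by side for 1 sex the control group comes first. Serpina3n, an acute phase protease inhibitor, lay at 0 to 1.35 (median 0.275) CPM in female wild types and at 3.39 to 50.8 (median 26) in female APC+/Min, and at 0.0887 to 1.56 (median 0.648) and 6.8 to 78.7 (median 22.9) in males. In C26 it lay at 0.97 to 2.14 (median 1.3) CPM after PBS and 5.68 to 58.2 (median 30.2) at 25 days in females, and at 0.898 to 2.3 (median 1.87) and 13.7 to 92.1 (median 54.4) in males. No tumour group overlapped its controls. Its log2 change was 5.90 ± 0.54 in APC+/Min and 4.70 ± 0.30 in C26, and the difference of 1.20 ± 0.57 did not pass (adjusted p = 0.1, 95% interval 0.06 to 2.34).

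Mt2, a metallothionein that binds zinc and is induced by metals and glucocorticoids, followed the same pattern. Its level was 1.18 to 27.6 (median 6.26) CPM in female wild types and 33.2 to 1520 (median 550) in female APC+/Min, 0.854 to 59.4 (median 5.78) and 101 to 1140 (median 324) in the males. In the C26 experiment it was 8.06 to 43.9 (median 17.5) and 75.8 to 817 (median 183) CPM in females and 4.8 to 29.7 (median 11.1) and 32.5 to 1550 (median 315) in males. Every tumour group lay above its controls. The log2 changes were 5.78 ± 0.70 and 4.63 ± 0.54, with a difference of 1.15 ± 0.78 (adjusted p = 0.28, 95% interval -0.42 to 2.71). Lcn2, which sequesters bacterial iron carriers, rose by 6.60 ± 0.61 and 5.37 ± 0.55 with no difference called (adjusted p = 0.23), although without APC_male_wt replicate 6 the difference was 1.95 (adjusted p = 0.047).

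Of the 24 genes of IL-6, STAT3 and the acute phase, 16 rose and 2 fell in APC+/Min and 20 rose and 1 fell in C26, with medians of 1.46 and 2.42. The receptor and its feedback inhibitor went different ways in the difference. Il6ra, the IL-6 receptor, rose by 3.77 ± 0.42 in APC+/Min and by 1.74 ± 0.22 in C26 (difference 2.03 ± 0.45, adjusted p = 0.00054). Socs3, which shuts off STAT3 signalling, lay at 0.786 to 3.71 (median 1.69) and 0.556 to 13.8 (median 9.2) CPM in female wild types and APC+/Min, and at 1.31 to 28.2 (median 2.64) and 4.48 to 29 (median 12.2) in males. In C26 it was 2.16 to 6.29 (median 3) and 7.35 to 52 (median 24) CPM in females and 2.02 to 12.1 (median 3.13) and 5.14 to 78.5 (median 53) in males, and only the C26 females were free of overlap with their controls. It rose by 1.60 ± 0.46 in APC+/Min and 3.18 ± 0.37 in C26, a difference of -1.59 ± 0.59 (adjusted p = 0.036). That call rests on single libraries: the difference was -1.10 (adjusted p = 0.11) without APC_male_wt replicate 6, and between -1.53 and -1.46 (adjusted p 0.051 to 0.062) without C26_female_25days 2, C26_male_pbs 6, C26_male_25days 5, APC_female_wt 1, APC_male_apc 1 or APC_male_apc 4. Hp, the haemoglobin scavenger haptoglobin, rose by 2.10 ± 0.42 and 4.16 ± 0.54 (difference -2.05 ± 0.68, adjusted p = 0.018), and without the 6 libraries that stand apart its difference was -0.82 (adjusted p = 0.33). Liver plasma protein genes summed to as much as 434 CPM in a male C26 library, and their part in the Hp value was not tested.

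The atrophy ligases Trim63 and Fbxo32 rose in both models and by more in APC+/Min. Trim63 was at 139 to 352 (median 198) CPM in female wild types and 607 to 3290 (median 2530) in female APC+/Min, and at 114 to 274 (median 154) and 126 to 2520 (median 802) in males. C26 libraries had 93.4 to 129 (median 115) and 119 to 503 (median 220) CPM in females and 103 to 161 (median 128) and 91.2 to 944 (median 283) in males. Only female APC+/Min was free of overlap with its controls, since the lowest library of each other tumour group lay below the highest of its controls. The log2 change was 3.08 ± 0.31 in APC+/Min and 1.28 ± 0.23 in C26, and the difference was 1.80 ± 0.38 (adjusted p = 3e-04). Fbxo32 was at 338 to 535 (median 456) and 846 to 3710 (median 3070) CPM in female wild types and APC+/Min, and at 221 to 545 (median 329) and 227 to 2840 (median 1440) in males. It was at 48.1 to 125 (median 81.7) and 135 to 319 (median 255) CPM in C26 females and 88.9 to 203 (median 163) and 102 to 997 (median 296) in C26 males. The females of both models were free of overlap and the males were not. The controls differed as well: wild types lay above PBS libraries without overlap for Fbxo32 in both sexes and for Trim63 in females. For Fbxo32 female wild types also lay above the female C26 libraries at 25 days. In males the wild type median of 329 CPM lay above the C26 median of 296. Fbxo32 rose by 2.38 ± 0.24 and 1.41 ± 0.24, and the difference of 0.97 ± 0.34 (adjusted p = 0.025) was 0.86 (adjusted p = 0.052) without APC_male_apc replicate 3. The list of atrophy ligases as a whole was mixed: of 20, 7 rose and 5 fell in APC+/Min and 5 rose and 5 fell in C26. The shares over all genes tested were 24.2% and 21.2% in APC+/Min and 11.7% and 10.3% in C26. Trim32 and Asb2 fell in APC+/Min with no call in C26 (-1.02 ± 0.22 and -0.93 ± 0.17).

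Upstream sequences are shown for 4 genes, 1 for each of 4 patterns: Trim63 rose by more in APC+/Min, Mt2 rose with no difference called, Ciart was APC only and Pi16 was opposite. No C26 only gene is shown. Each line gives the 250 bases before the RefSeq start (GRCm38.p6), 5′ to 3′ on the gene's strand. Capitals mark matches on either strand to GTAAACA (the core that FoxO factors bind), CACGTG (the E-box of the clock factors) and TGCNCNC. The last is a looser pattern than the core of the metal response element, so a match to it need not be a core site. These windows lie at chr4:134314870-134315119 (plus strand), chr8:94172368-94172617 (plus strand), chr3:95882229-95882478 (minus strand) and chr17:29318632-29318881 (plus strand).
Trim63: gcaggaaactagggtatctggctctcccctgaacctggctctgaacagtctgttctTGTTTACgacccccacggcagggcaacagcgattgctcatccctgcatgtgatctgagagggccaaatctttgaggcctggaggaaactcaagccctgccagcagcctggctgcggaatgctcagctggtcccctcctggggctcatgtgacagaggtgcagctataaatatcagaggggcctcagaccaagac
Mt2: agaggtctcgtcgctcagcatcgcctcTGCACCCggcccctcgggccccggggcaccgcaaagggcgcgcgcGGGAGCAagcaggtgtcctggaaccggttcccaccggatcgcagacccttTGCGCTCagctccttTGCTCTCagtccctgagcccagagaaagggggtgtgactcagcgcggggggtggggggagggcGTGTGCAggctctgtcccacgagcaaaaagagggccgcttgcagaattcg
Ciart: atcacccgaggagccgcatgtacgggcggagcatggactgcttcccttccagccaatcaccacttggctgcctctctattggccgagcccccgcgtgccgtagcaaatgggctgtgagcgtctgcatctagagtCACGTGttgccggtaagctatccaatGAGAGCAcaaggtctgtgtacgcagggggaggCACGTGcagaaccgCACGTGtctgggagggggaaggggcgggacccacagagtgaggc
Pi16: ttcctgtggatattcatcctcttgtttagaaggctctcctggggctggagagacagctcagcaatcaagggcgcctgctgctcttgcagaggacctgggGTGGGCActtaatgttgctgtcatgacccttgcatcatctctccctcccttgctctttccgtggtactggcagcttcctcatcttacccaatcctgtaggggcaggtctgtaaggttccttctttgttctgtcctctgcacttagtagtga
Among 32851 windows of the same length, GTAAACA was in 3.17%, CACGTG in 6.02% and TGCNCNC in 44.4%. Trim63 held 1 match to GTAAACA, Mt2 5 matches to TGCNCNC, Ciart 3 matches to CACGTG and 1 to TGCNCNC, and Pi16 1 match to TGCNCNC. A match of letters is a description and shows no binding.

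Downstream of the ligases, proteasome subunits rose in both models. Of 33 tested, 28 rose in APC+/Min (median 0.84) and 15 in C26 (median 0.27), none fell in either, and the difference was called for 22, all with the higher change in APC+/Min. Without the 6 libraries that stand apart the counts were 30, 8 and 25. Psmd8, a subunit of the regulatory particle, lay at 81.5 to 115 (median 104) and 161 to 882 (median 575) CPM in female wild types and APC+/Min and at 127 to 171 (median 144) and 172 to 1110 (median 399) in males, with no overlap in either sex. It lay at 69.2 to 115 (median 89.4) and 75.8 to 185 (median 80.7) CPM in C26 females and at 73.9 to 95.8 (median 89.2) and 88 to 158 (median 101) in C26 males, overlapping in both. Its changes were 2.11 ± 0.21 and 0.22 ± 0.12 (difference 1.89 ± 0.24, adjusted p = 6.9e-08). All 43 cytosolic ribosomal protein genes rose in APC+/Min and 38 in C26, but without the 6 libraries 11 rose in C26 and the difference was called for 36 in place of 5.

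Among 29 autophagy and lysosome genes, 19 rose and 4 fell in APC+/Min, 12 rose and 1 fell in C26, and the difference was called higher for 14 and lower for 3. Bnip3, a mitophagy receptor, rose by 2.18 ± 0.20 and 0.36 ± 0.09 (difference 1.81 ± 0.22, adjusted p = 2e-08). Ctsl, a lysosomal protease, rose by 2.45 ± 0.20 in APC+/Min and was at 0.86 ± 0.32 in C26 (adjusted p = 0.053, and called under several other settings, among them without the 4 libraries rich in Alb), with a difference of 1.59 ± 0.39. Of 23 glucocorticoid and FoxO responsive genes, 16 rose and 1 fell in each model, with medians of 1.44 and 0.90. Eif4ebp1, which represses cap-dependent translation, rose by 3.68 ± 0.28 and 1.77 ± 0.25 (difference 1.91 ± 0.37, adjusted p = 8.5e-05). Sesn1, an inhibitor of mTORC1 that p53 and FoxO induce, rose by 3.82 ± 0.39 and 0.74 ± 0.15 (difference 3.08 ± 0.40, adjusted p = 9e-08).

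**Figure D3:**
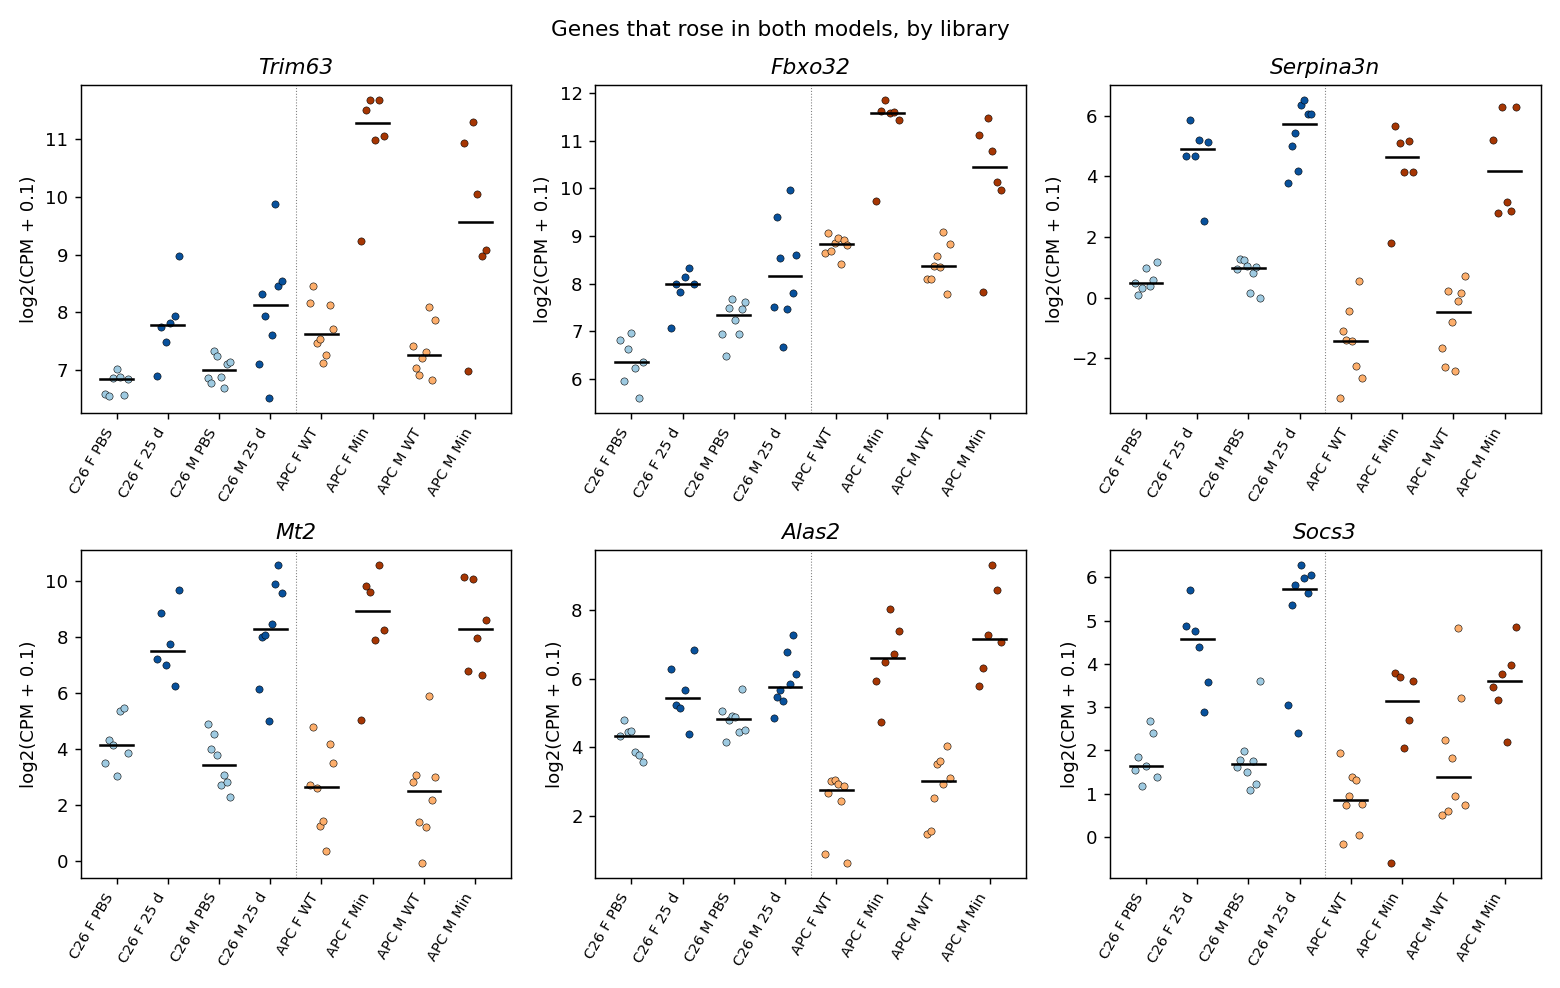
Each point is a library, its level as log2(CPM + 0.1) on the y axis, and bars are group medians, with F and M for females and males and Min for APC+/Min. Serpina3n and Mt2 lie above their controls in all 4 tumour groups, whereas Trim63, Fbxo32 and Socs3 have tumour libraries among the control values in males.

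Erythroid transcripts differed most among the lists that rose in both. All 9 tested erythroid markers rose in each model, with medians of 4.36 and 1.39, and all 9 were called higher in the difference. Alas2, the enzyme of haem synthesis in red cell precursors, was at 1.46 to 8.21 (median 6.72) and 26.7 to 260 (median 97.2) CPM in female wild types and APC+/Min and at 2.68 to 16.3 (median 8.09) and 55.1 to 633 (median 143) in males, with no overlap. After PBS and at 25 days of C26 Alas2 was at 11.9 to 27.9 (median 20.1) and 20.8 to 113 (median 43.8) CPM in females and 17.8 to 51.3 (median 28.4) and 28.9 to 152 (median 54.1) in males, with overlap in both sexes. The changes were 4.59 ± 0.41 and 1.39 ± 0.23 and the difference 3.21 ± 0.45 (adjusted p = 4.7e-07). The controls differed as well: in each sex the highest wild type library lay below the lowest PBS library. The medians of the tumour groups were 97.2 and 143 CPM in APC+/Min females and males and 43.8 and 54.1 in C26. Slc4a1, the anion exchanger of the red cell, rose by 6.29 ± 0.51 and 1.72 ± 0.32. In bulk samples more or fewer cells of a type cannot be told apart from more or less RNA per cell.

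Opposite changes were called for 3 of 13 fibro-adipogenic progenitor markers, Pi16, Clec3b and Dpt, and for none of the 32 extracellular matrix or 18 tendon and cartilage matrix genes. Of the 13 progenitor markers, 9 fell and none rose in APC+/Min (median -1.49), 5 rose and none fell in C26 (median 0.34), and the difference was called lower in APC+/Min for 12, all but Hic1. These counts of rises, falls and differences were the same without the 6 libraries that stand apart, but Dpt was then no longer opposite. Dpt kept its opposite calls in 54 of 57 fits with a library left out and in 9 of 17 other settings. Pi16, which marks a progenitor state shared by fibroblasts of many tissues, was at 2.33 to 16.7 (median 9.7) and 0.0408 to 1.67 (median 0.786) CPM in female wild types and APC+/Min and at 1.92 to 24.9 (median 8.94) and 0.746 to 2.25 (median 1.35) in males. After PBS and at 25 days of C26 it was at 16 to 26.6 (median 22.7) and 22 to 61.1 (median 47.6) CPM in females and 11.5 to 29.7 (median 20.3) and 17.6 to 83.1 (median 45.2) in males. Female APC+/Min libraries all lay below their wild types, and the other 3 pairs overlapped. Pi16 fell by 3.16 ± 0.37 in APC+/Min (adjusted p = 8.6e-08) and rose by 1.13 ± 0.19 in C26 (adjusted p = 6.8e-05), a difference of -4.28 ± 0.40 (adjusted p = 1.5e-11).

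Podn, podocan, a small leucine-rich proteoglycan of the matrix, was at 1.85 to 9.58 (median 6.29) and 0.287 to 3.78 (median 1.64) CPM in female wild types and APC+/Min and at 5.56 to 12.8 (median 6.75) and 0.597 to 5.16 (median 1.91) in males. The C26 experiment gave 7.5 to 12.1 (median 9.84) and 12.5 to 31.9 (median 28.1) CPM in females and 8.24 to 17.8 (median 11.7) and 15.2 to 36.2 (median 20.7) in males. APC+/Min males lay below their wild types and C26 females above PBS without overlap. Podn had log2 changes of -1.77 ± 0.33 and 1.05 ± 0.15 (difference -2.83 ± 0.35, adjusted p = 3.1e-08). Clec3b, tetranectin, another progenitor marker, was at 9.25 to 19.9 (median 13.7) and 0.0744 to 5.73 (median 0.561) CPM in the females of the APC experiment and at 6.93 to 22.7 (median 13.2) and 0.237 to 7.01 (median 2.45) in the males. In C26 it was at 21.5 to 31.7 (median 24.7) and 26.3 to 118 (median 32.1) CPM in females and 17.7 to 29.2 (median 23.1) and 18 to 65.3 (median 30) in males, so both C26 pairs overlapped, as did the APC males, and the APC+/Min females lay below their wild types. It had log2 changes of -2.79 ± 0.48 and 0.69 ± 0.20 (difference -3.48 ± 0.47, adjusted p = 2.5e-07). Its rise in C26 was not called in the joint model or in either sex alone.

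Sod3, the superoxide dismutase of the extracellular space, was at 2.1 to 6.88 (median 3.46) and 0.204 to 1.84 (median 1.36) CPM in female wild types and APC+/Min and at 2.78 to 7.4 (median 4.95) and 0 to 4.96 (median 2.68) in males. In C26 it was at 4.71 to 10.3 (median 6.83) and 9.73 to 32.3 (median 15.1) CPM in females and 3.61 to 10.3 (median 5.02) and 7.17 to 32.4 (median 12.2) in males. Only female APC+/Min was free of overlap. The changes were -1.31 ± 0.38 and 1.34 ± 0.20 (difference -2.65 ± 0.41, adjusted p = 2.6e-06). Ucp3, a mitochondrial carrier that rises when muscle burns fat, was at 95.8 to 394 (median 245) and 38.2 to 344 (median 152) CPM in female wild types and APC+/Min and at 50.7 to 286 (median 125) and 19.3 to 66.8 (median 35.4) in males. It was at 32.3 to 119 (median 99.8) and 76.6 to 282 (median 178) CPM in C26 females and 70.6 to 149 (median 111) and 89 to 271 (median 171) in C26 males, with overlap in all 4 pairs. The changes were -1.17 ± 0.34 and 0.83 ± 0.18 (difference -2.0 ± 0.38, adjusted p = 7.7e-05).

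The remaining genes that the naming rule took from the 87 were Lgi2 (-1.82 ± 0.47 and 1.03 ± 0.16), 4930512H18Rik, BC048679, Aldh1a2, Nepn, Fcrls and AC109619.1. Some calls were near the threshold: in APC+/Min the adjusted p was 0.046 for Aldh1a2, 0.043 for Nepn and 0.044 for Fcrls, and in C26 it was 0.044 for AC109619.1. Without the 6 libraries that stand apart, Aldh1a2 lost its call in APC+/Min, and BC048679 and AC109619.1 lost theirs in C26. AC109619.1 was the only one of the 10 taken by size that rose in APC+/Min and fell in C26. Of the 87 genes, 53 kept both calls whichever single library was left out, 61 kept them without the 6 libraries that stand apart, 11 in females alone and 20 in males alone. Pi16 and Podn kept them under all 57 left-out libraries and all 17 other settings tried.

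**Figure D4:**
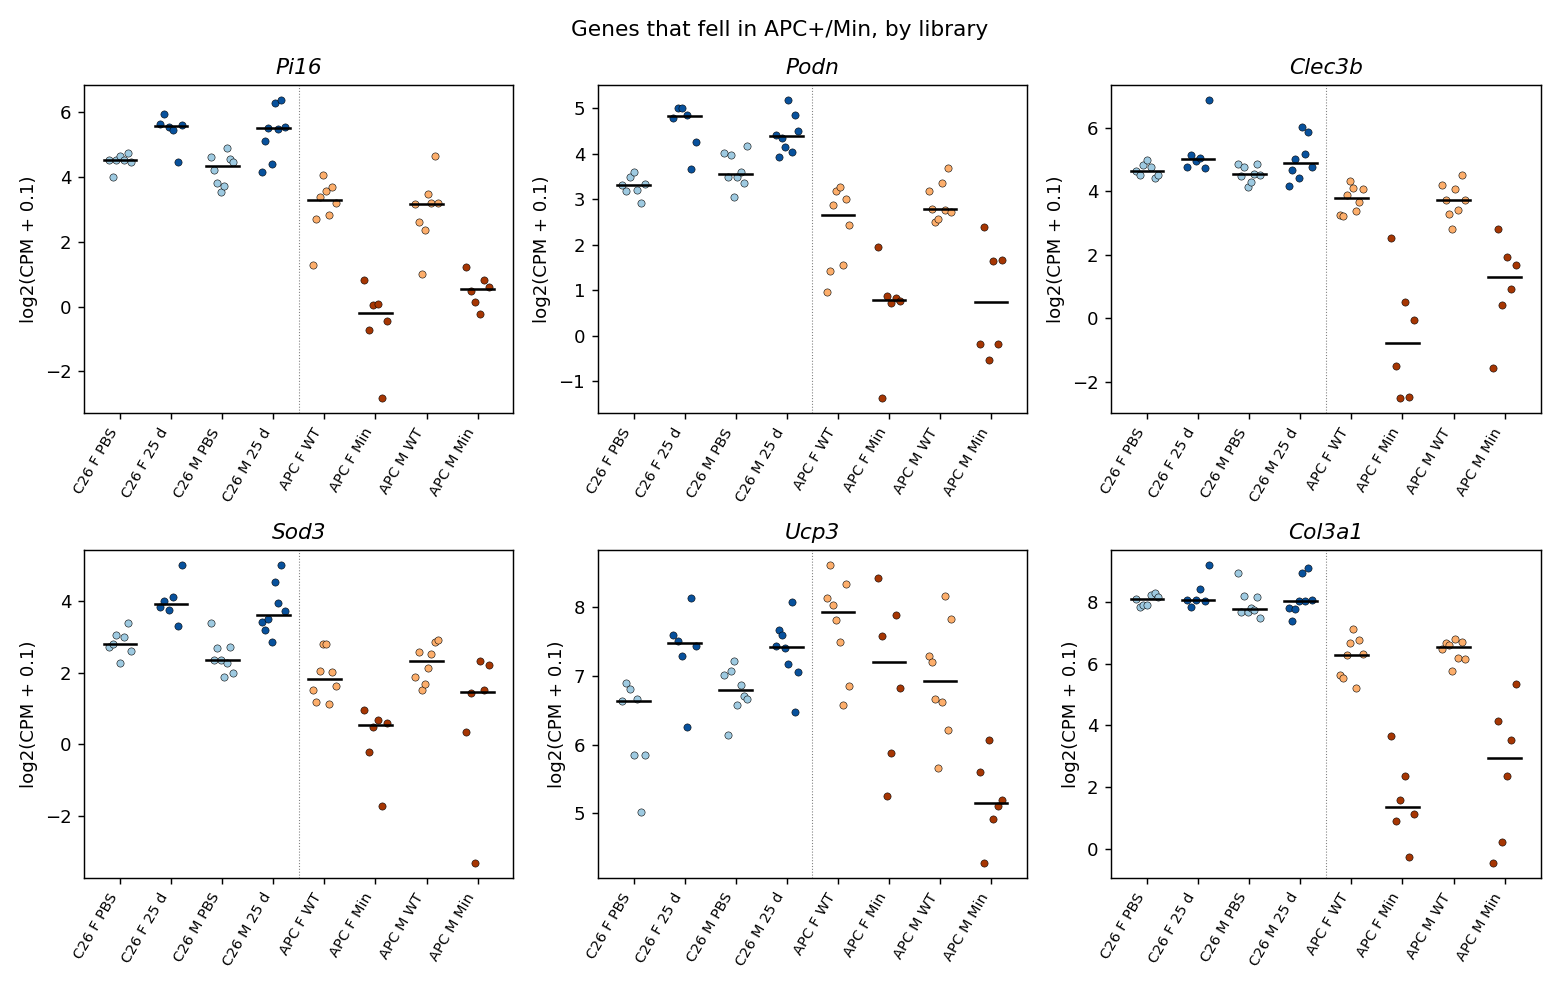
Each point is a library, its level as log2(CPM + 0.1) on the y axis, and bars are group medians. Pi16, Podn, Clec3b, Sod3 and Ucp3 rose in C26 and fell in APC+/Min, and Col3a1 fell in APC+/Min with no call in C26. The controls of Col3a1 do not overlap between the experiments in either sex, nor do those of Clec3b in females.

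Collagen and other matrix genes fell in APC+/Min, and fewer of them fell in C26. The same direction was called in both models for 9 of the 32 extracellular matrix genes and 10 of the 18 tendon and cartilage matrix genes. Of 32 extracellular matrix genes, 4 rose and 22 fell in APC+/Min (median -0.95), 3 rose and 8 fell in C26 (median -0.04), and the difference was called higher for 1 and lower for 24. Col3a1, a fibrillar collagen, was at 36.8 to 139 (median 78) and 0.734 to 12.5 (median 2.52) CPM in female wild types and APC+/Min and at 53.8 to 112 (median 93) and 0.631 to 40 (median 8.22) in males, with no overlap in either sex. Col3a1 in the C26 experiment was at 229 to 311 (median 275) and 227 to 589 (median 267) CPM in females and 179 to 492 (median 219) and 165 to 548 (median 262) in males. The changes were -3.49 ± 0.52 and 0.25 ± 0.17 (difference -3.73 ± 0.49, adjusted p = 1.3e-07). Col1a1 and Col1a2, the chains of type I collagen, had log2 changes of -3.57 ± 0.51 and -3.00 ± 0.33 in APC+/Min and -0.29 ± 0.15 and -0.22 ± 0.14 in C26, where Col1a1 was called only after the 6 libraries that stand apart, or the library rich in short transcripts alone, were left out, or with the length slope as a covariate. Of 18 tendon and cartilage matrix genes, 3 rose and 13 fell in APC+/Min (median -1.87) and 2 rose and 9 fell in C26 (median -0.68). Kera, the proteoglycan keratocan, had a median of 1.78 CPM in female and 2.6 in male wild types, against 0 in both APC+/Min sexes, with 2 counts in all female and 0 in all male libraries. In C26 its median went from 2.75 to 0.484 CPM in females and from 2.99 to 0.352 in males, a change of -2.54 ± 0.37.

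Genes of muscle identity and of oxidative metabolism were among those that fell in APC+/Min. Of 11 muscle identity genes 6 fell in APC+/Min and 1, the muscle creatine kinase Ckm, rose in C26. Without the 6 libraries that stand apart, 7 fell in APC+/Min, and in C26 none rose and 3 fell. Ckm kept its opposite calls in 30 of 57 fits with a library left out and in 5 of 17 other settings, and lost them without the 6 libraries. Mb, which encodes myoglobin, the oxygen store of muscle, was at 2030 to 3470 (median 2550) and 374 to 741 (median 493) CPM in female wild types and APC+/Min and at 834 to 2720 (median 1890) and 140 to 652 (median 310) in males, with no overlap in either sex. Mb in the C26 experiment was at 4320 to 5830 (median 5200) and 4150 to 7000 (median 5320) CPM in females and 4000 to 5060 (median 4400) and 3230 to 6790 (median 4060) in males, where the groups overlapped. The changes were -2.38 ± 0.20 and 0.008 ± 0.089 (difference -2.39 ± 0.21, adjusted p = 2.8e-12). Myh2, the fast oxidative myosin heavy chain, had log2 changes of -3.56 ± 0.62 and -0.64 ± 0.36 (adjusted p in C26 = 0.22), and Acta1, skeletal actin, of -1.26 ± 0.23 and 0.073 ± 0.085.

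Of 46 nuclear-encoded genes of oxidative phosphorylation, 1 rose and 39 fell in APC+/Min (median -0.70), none rose and 9 fell in C26 (median -0.02), and the difference was called lower for 39. Without the 6 libraries, 19 fell in C26 and the difference was called lower for 28. Of 13 mitochondrially encoded transcripts, 12 fell in APC+/Min and none was called in C26. mt-Co2, a subunit of cytochrome oxidase, was at 794 to 2280 (median 1200) and 279 to 515 (median 476) CPM in female wild types and APC+/Min and at 923 to 2930 (median 1550) and 279 to 1660 (median 786) in males. The females did not overlap and the males did. The share of mitochondrial counts had a median of 17.1% in female wild types and 10.3% in female APC+/Min, and reached 33.3% in a male wild type library. Fatty acid genes split: of 28, 6 rose and 13 fell in APC+/Min while 14 rose and 1 fell in C26, and the difference was called lower for 12 and higher for 1. Fabp3, the fatty acid carrier of muscle, had log2 changes of -1.32 ± 0.20 and 0.31 ± 0.14 (difference -1.64 ± 0.25, adjusted p = 1.5e-06).

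Several stress and signalling genes rose in APC+/Min only. Igfbp3, a binding protein of insulin-like growth factors, was at 12.5 to 20.9 (median 16.6) and 27.6 to 225 (median 132) CPM in female wild types and APC+/Min and at 13.1 to 27.3 (median 15.7) and 58.5 to 207 (median 98.4) in males, with no overlap. In C26 it was at 12.3 to 16.5 (median 13.4) and 11.2 to 18 (median 13.9) CPM in females and 12.1 to 19.7 (median 14.4) and 12.9 to 25 (median 17.6) in males. Its changes were 2.79 ± 0.20 and 0.20 ± 0.095 (difference 2.60 ± 0.22, adjusted p = 6.9e-13). Egln3, an oxygen-sensing hydroxylase that HIF induces, was at 22.5 to 51.9 (median 31.2) and 50.7 to 398 (median 268) CPM in female wild types and APC+/Min and at 1.65 to 43.4 (median 29.8) and 65.4 to 246 (median 176) in males, free of overlap in males only. It was at 29.1 to 50.6 (median 39.8) and 19.3 to 43.5 (median 26.7) CPM in C26 females and 15.4 to 26.6 (median 19.4) and 14.1 to 34.2 (median 26) in C26 males. Egln3 had log2 changes of 2.77 ± 0.33 and -0.001 ± 0.15 (difference 2.77 ± 0.36, adjusted p = 6.9e-08). The hypoxia list as a whole was mixed, with 8 of 22 higher and 7 lower in APC+/Min, against 24.2% and 21.2% of all genes tested. In C26 5 of the 22 were higher and 3 lower. The same direction was called in both models for 7, and 6 were APC only.

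Of 17 integrated stress response genes 9 rose and 2 fell in APC+/Min and 5 rose and 1 fell in C26. Over all genes tested 24.2% rose and 21.2% fell in APC+/Min, and 11.7% rose and 10.3% fell in C26. Ppp1r15a, which restores translation after stress, had log2 changes of 2.42 ± 0.28 and 0.17 ± 0.14, and Slc7a5, a transporter of large amino acids, of 1.95 ± 0.26 and 0.17 ± 0.24. Of 18 p53 targets 10 rose and 4 fell in APC+/Min and 6 rose and 3 fell in C26. The same direction was called in both models for 9 of the 18, and 3 were APC only. Trp53inp1, an APC only gene, was at 2.40 ± 0.32 against 0.20 ± 0.12 in C26. Clock genes had 9 of 20 called higher in the difference and 1 lower, against 14.6% and 14.4% of all genes tested. Cry2, a repressor of the clock, had log2 changes of 2.59 ± 0.34 and 0.08 ± 0.096 (difference 2.51 ± 0.35, adjusted p = 3.5e-07). Ciart, another clock repressor, was at 0.408 to 7.44 (median 1.04) and 9.29 to 28.1 (median 16.4) CPM in female wild types and APC+/Min and at 0.392 to 10.5 (median 5.41) and 3.15 to 35.6 (median 9.44) in males, free of overlap in females only. Ciart had log2 changes of 2.25 ± 0.52 in APC+/Min and -0.22 ± 0.27 in C26 (difference 2.47 ± 0.58, adjusted p = 0.00091). The hour at which tissue was taken is not given in the labels, and its part in the clock genes was not tested.

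Of 18 macrophage markers 6 rose and 1 fell in APC+/Min and 7 rose in C26, with medians of 0.71 and 0.69, and the difference was called higher for 2 and lower for 1. Over all genes tested 24.2% rose in APC+/Min and 11.7% in C26, and the difference was called for 29.1%. Only 5 of the 16 listed lymphocyte markers were tested, and 2 of them fell in each model. Lgals3, galectin 3, of activated macrophages, rose by 3.72 ± 0.41 in APC+/Min and was at 0.63 ± 0.58 in C26 (adjusted p = 0.47), a difference of 3.08 ± 0.75 (adjusted p = 0.0014). Cd74, the invariant chain of antigen presentation, had log2 changes of -1.36 ± 0.42 and 0.33 ± 0.24. Ighm, the immunoglobulin M heavy chain of B cells, fell in both, by 4.31 ± 0.52 and 1.33 ± 0.31 (difference -2.97 ± 0.56, adjusted p = 6.4e-05). The 12 APC only genes that the naming rule took for the size of the difference are given by name, 4 of them with levels. Gm32051, Gm10184, Gm32939, Tcte3, Btbd16 and Ggt6 were called higher, and Rpl15-ps3, Gm5420, Lrrc52, Arsi, Gbp10 and Gm43302 lower. Gm5420 had medians of 1.93 and 1.96 CPM in female and male wild types, against 1 count in all female and 0 in all male APC+/Min libraries, and medians of 0.913 to 1.26 CPM in the C26 experiment. Gm32051 was at 0 in every wild type library and at 0.556 to 5.67 (median 2.42) and 0.689 to 17.5 (median 2.94) CPM in female and male APC+/Min. Gm10184 was at 0 in all libraries of the APC experiment but 1 male APC+/Min library at 11.7 CPM, so its call rests on that library. Rpl15-ps3, a ribosomal pseudogene whose reads may be split with its parent gene, was at 0 in at least 1 library of every group.

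A smaller set rose in C26 only. The largest by the naming rule were Gm47924, Gm20659, Gm42429, Bhmt, Gm27177 and Nxpe5. Each lost its called difference in limma-voom and with the replicate block, and Gm42429 lost its C26 call in 15 fits with a library left out. Genes of fuel use, given next with the C26 experiment first, were named through the gene lists and not by this ranking. Ppp1r3c, which targets protein phosphatase to glycogen and promotes its storage, was at 215 to 283 (median 221) and 450 to 871 (median 577) CPM in females and at 197 to 463 (median 250) and 567 to 982 (median 653) in males, with no overlap in either sex. In the APC experiment it was at 342 to 1100 (median 595) and 266 to 1410 (median 516) CPM in females and 203 to 691 (median 363) and 42.9 to 657 (median 338) in males, with wide overlap. The changes were 1.39 ± 0.11 in C26 and -0.049 ± 0.28 in APC+/Min (difference -1.44 ± 0.30, adjusted p = 0.00025). Pdk4, the kinase that turns off glucose oxidation, was at 79 to 437 (median 289) and 619 to 1870 (median 728) CPM in females and 180 to 626 (median 303) and 459 to 2580 (median 1150) in males, free of overlap in females. In wild types and APC+/Min it was at 272 to 2980 (median 1490) and 874 to 3220 (median 1840) CPM in females and 145 to 988 (median 283) and 26.2 to 1370 (median 409) in males, so the median of female wild types lay above the median of either C26 tumour group. Pdk4 had log2 changes of 1.78 ± 0.28 in C26 and 0.22 ± 0.43 in APC+/Min (difference -1.56 ± 0.52, adjusted p = 0.018, against 0.081 in limma-voom).

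Angptl4, an inhibitor of lipoprotein lipase, had log2 changes of 1.88 ± 0.46 in C26 and -0.20 ± 0.38 in APC+/Min (difference -2.09 ± 0.62, adjusted p = 0.0082). Lipe, hormone-sensitive lipase, had log2 changes of 0.78 ± 0.11 and -0.11 ± 0.14. Nog, the BMP antagonist noggin, had log2 changes of 1.42 ± 0.21 and 0.041 ± 0.24, and Sfrp1, a secreted Wnt antagonist, of 1.34 ± 0.20 and -0.11 ± 0.45. Aqp1, the water channel of endothelium, had log2 changes of 0.57 ± 0.081 and -0.17 ± 0.15 (difference -0.74 ± 0.17, adjusted p = 0.00079). Those that fell in C26 only by the naming rule included Tnfaip3, the inhibitor of NF-kB signalling, at -1.09 ± 0.20 against 0.13 ± 0.35 (without APC_male_apc replicate 1 the difference was 0.81, adjusted p = 0.074), and Vegfc, the lymphatic growth factor, at -0.84 ± 0.17 against 0.35 ± 0.32.

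**Figure D5:**
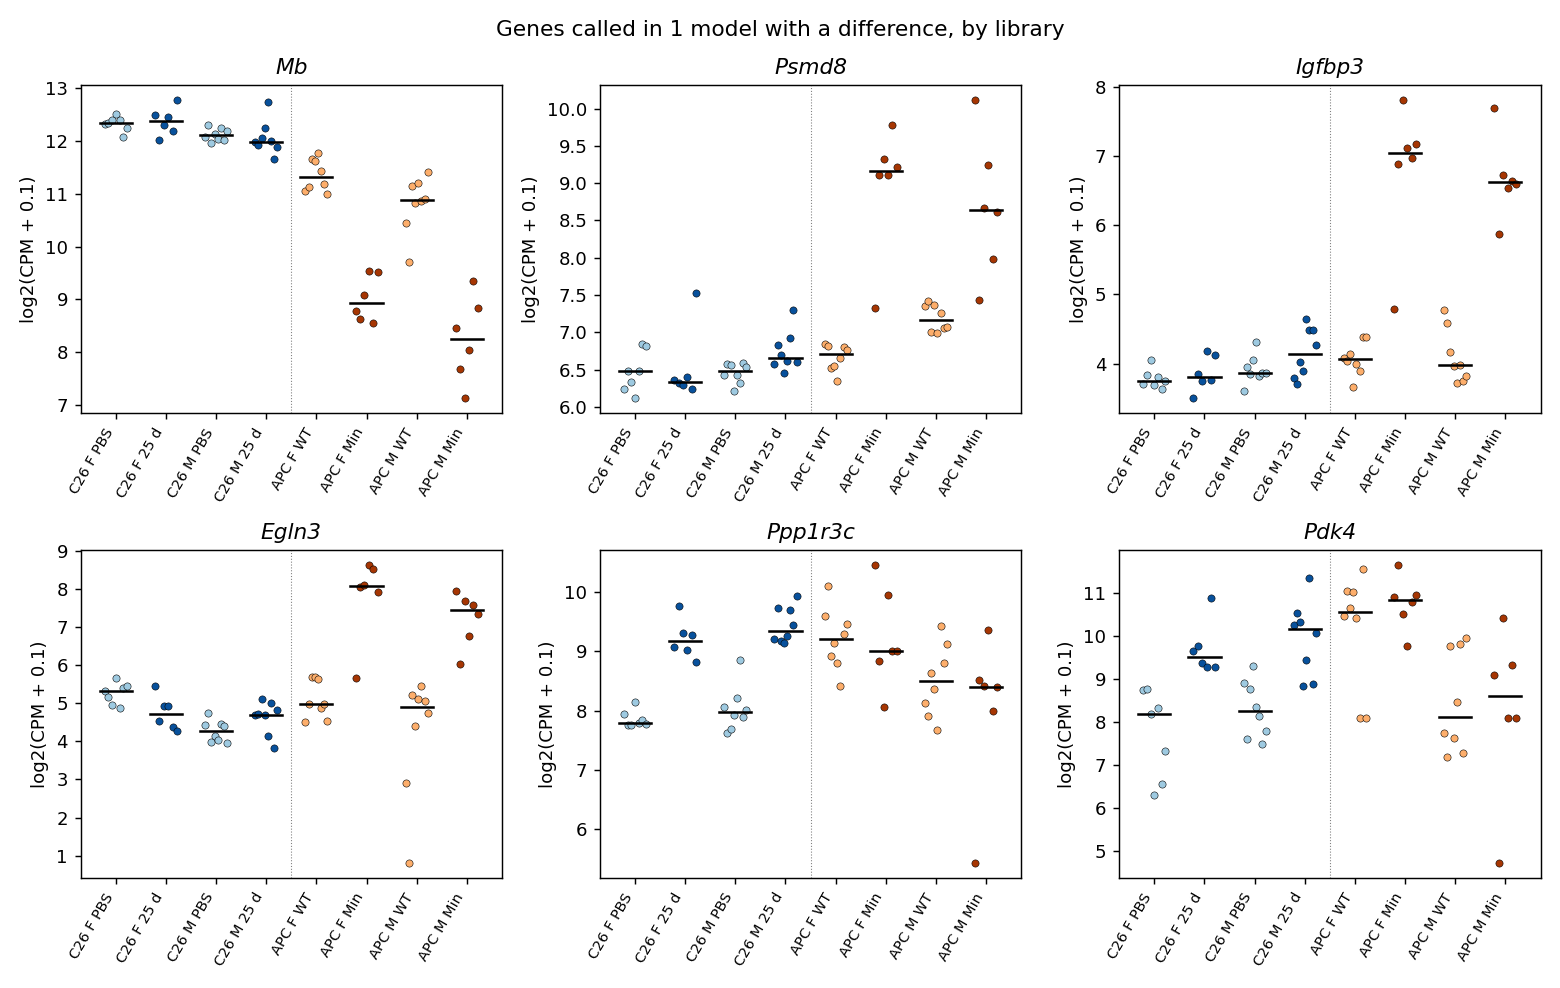
Each point is a library, its level as log2(CPM + 0.1) on the y axis, and bars are group medians. Mb, Psmd8, Igfbp3 and Egln3 moved in APC+/Min and Ppp1r3c and Pdk4 in C26. The controls of Mb do not overlap between the experiments in either sex, nor do those of Ppp1r3c in females or of Psmd8 in males.

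The sexes were blocks in these tests. The interaction of sex with the difference was called for 0 genes by edgeR (0% of those tested; 1787 at an unadjusted p below 0.05), 0 by limma-voom, 15 by DESeq2 and 188 by edgeR without the 6 libraries that stand apart. The log2 change of Ucp3 in APC+/Min was -1.86 in males (adjusted p = 0.0027) and -0.52 in females (adjusted p = 0.37), and whether these differ was not tested. Its difference between the models did not differ between the sexes beyond error (adjusted p = 0.67).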

How the data were processed

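RNA from snap-frozen tibialis anterior was sequenced as poly(A)-enriched mRNA libraries. The authors deposited estimated counts for each gene, made with Salmon 1.10.2 against GRCm39 (mm39), per the submitters' processing notes, and R 4.4.1, edgeR and limma are named there too. Of these values 9.7% were not whole, and they were rounded. Symbols and gene lengths came from another annotation, GENCODE M21, by identifier (51272 of 56065, holding 99% of counts), and no coordinates were taken from it.

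Genes with too few counts were removed (filterByExpr, minimum count 10, minimum total 15), libraries were scaled by TMM over the 57 libraries, and edgeR 4.0.16 quasi-likelihood tests were run in R 4.3.3 with sexes as blocks, 1 fit for each model's change and a joint fit for the difference. P-values were Benjamini-Hochberg adjusted, with 0.05 as the threshold, and a standard error is the log2 change divided by the root of F. limma 3.58.1 and DESeq2 1.42.0 were alternatives. On simulated counts for the difference over 16088 genes, 39% of 100 genes changed 2-fold and 70% of 100 changed 4-fold were recovered, with 13 false calls. Members and the 47 gene lists were chosen with earlier results of these data known. Named genes had a mean of at least 1 CPM in 1 group or more and were, by size, up to 10 opposite, 6 higher and 6 lower of each 1-model class, 5 higher and 5 lower in both, and 3 called per list, with Apc, Fbxo32, Trim63 and Alb always; genes outside this rule were chosen after their values were seen. Libraries of 10 and 20 days of C26 were not used in these tests. Genes with near-identical copies, such as the globins and ribosomal proteins, have uncertain counts.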

Additional observations from a re-analysis of the deposited data

Results flagged for a closer look

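Of 160 pairs of gene and group examined among the genes plotted or given by library range, 24 had a library far from the others of its group by Dixon's ratio. Its threshold gives about 1 in 20 by chance only for independent values of normal spread. These were CPM without logs from shared libraries, so no excess can be read from the count. Values below are CPM, with the nearest library of the group in brackets.

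C26_female_25days replicate 6, which holds short transcripts in excess, was highest for Trim63 at 503 (244), Sod3 at 32.3 (17.3), Clec3b at 118 (35.4), Col3a1 at 589 (338), mt-Co2 at 5320 (1560) and Psmd8 at 185 (84.4). APC_female_apc replicate 1, where Alb was detected at 10 CPM or more, was apart for Fbxo32 at 846 (2770), Clec3b at 5.73 (1.32) and Col3a1 at 12.5 (5.04), each nearer to the wild types than the other libraries of its group. The part of short transcripts and of Alb in these values was not tested.

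Among C26 males, replicate 6 at 25 days had Trim63 at 944 (374), replicate 5 had Mb at 6790 (4860) and replicate 2 had Ciart at 11.1 (5.5). C26_female_25days replicate 5 had Pdk4 at 1870 (861). In PBS males, replicate 1 had Sod3 at 10.3 (6.48) and Col3a1 at 492 (292), replicate 4 had Ciart at 14.5 (8), replicate 6 had Ppp1r3c at 463 (298), replicate 7 had Alas2 at 51.3 (32.9) and replicate 8 had Socs3 at 12.1 (3.86).

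In the APC experiment, APC_male_wt replicate 6 had Mt2 at 59.4 (8.37) and Socs3 at 28.2 (9.17), and replicate 7 of that group had Pi16 at 24.9 (11). APC_female_wt replicate 2 had Ciart at 7.44 (2.8), and APC_male_apc replicate 1 had Igfbp3 at 207 (106).

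In libraries outside the comparison, Serpina3n had a median of 15.4 CPM in males at 20 days of C26, above the highest male PBS library at 2.35.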

How the results depend on the processing

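Precision is limited by 6 to 8 libraries a group, and the small C26 changes were the most dependent on the fit. The number of genes whose change differs between the models was 1168 in males alone and 3755 in females alone. The genes changed in APC+/Min were 3848 in males alone and 6327 in females alone. The genes changed in C26 25 days were 425 in females alone and 2628 in males alone. They were 1511 with both changes from the joint fit, whose single dispersion is shared by both experiments. Genes changed in opposite directions were 16 in females alone, 29 in males alone and 41 in the joint fit. Genes changed in APC+/Min only, with a difference, were 772 in males alone and 3430 in females alone. Genes changed in C26 only, with a difference, were 52 in females alone, 91 in males alone, 141 in the joint fit and 370 with all 88 libraries. Genes changed in the same direction in both models were 268 in females alone, 1354 in males alone and 1105 in the joint fit. Genes whose difference between the models differs between the sexes were 188 without all libraries that stand apart and 15 in DESeq2, an alternative added after the data were seen. Fewer libraries enter each fit of 1 sex, but the counts also differ between the sexes, and the cause of these moves was not tested.

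Leaving out each library in turn, also added after the data were seen, gave 4284 to 5398 differences, 6894 to 7725 changes in APC+/Min, 2922 to 3938 in C26, 71 to 108 opposite genes, 2858 to 3635 in APC+/Min only, 204 to 277 in C26 only and 1941 to 2504 in the same direction. The split of C26 calls was 1879 higher and 1653 lower, against 990 and 521 in the joint fit and 329 and 96 in females alone. It turned to more lower calls in limma-voom (1623 and 2030), without all libraries that stand apart (1655 and 1866), with the length slope as a covariate (1699 and 1813) and with the replicate block (1189 and 1310).

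Whether the replicate numbers pair the samples is not stated in the labels, and correlated levels alone cannot settle it. Of 26 pairs 5 had correlated deviations over 0.1 (range -0.181 to 0.206, median 0.0246), and 4 correlated best with their own number. With the replicate block, differences numbered 3774, opposite genes 48 and C26 only genes 143.

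Among the differences of the named genes, 11485 values over all settings kept direction and call, 454 lost the call, 16 gained it and 8 changed sign. The sign changes were Gm10184 (-0.11 in females alone; -0.14 to 7.553 over left-out libraries, the first without APC_male_apc replicate 3, the only library of its experiment with counts), Rpl15-ps3 (0.019 in limma-voom), Retnlg (-0.072 in males alone), Mymk (-0.326 in females alone), Hspa1b (0.087 in females alone) and Alb (1.396 in females alone; -9.469 to 1.924 over left-out libraries).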

Other observations

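The C26 experiment also holds libraries at 10 and 20 days, with no PBS group of their own. Their levels are set beside the PBS libraries of 25 days and no test was made (CPM scaled over all 88 libraries of the series). Ppp1r3c, which promotes glycogen storage, had medians of 297, 513 and 590 CPM at 10, 20 and 25 days in females, against 224 after PBS, and 366, 517 and 659 in males, against 255. At 20 days 7 of 8 female and 4 of 7 male libraries lay above the highest PBS library. Podn, the matrix proteoglycan, had a female median of 10.5 CPM at 10 days, 15.8 at 20 days and 28.6 at 25 days, against 10.1 after PBS.

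The progenitor marker Pi16 was at medians of 26.2, 26.4 and 48 CPM in females and 22.1, 23.2 and 45.6 in males at 10, 20 and 25 days, against 23.1 and 20.6 after PBS. Socs3, the inhibitor of STAT3 signalling, had medians of 2.85, 10.6 and 24.5 CPM in females and 3.37, 8.3 and 53.5 in males, against 3.03 and 3.17. The days hold different mice, and their libraries overlap for each of these genes at 10 days with those after PBS.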
